A study of Sus scrofa with 4 samples.

Results

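The comparison set LD muscle (longissimus dorsi, the long muscle along the spine) of Laiwu pigs labelled 240 d against that of pigs labelled 60 d. The members were chosen by the age label alone, and they are 6 of the 12 libraries of the series, 3 per age. All 12 pigs were purebred castrated males, recorded as wild type and reared under similar conditions, and muscle was taken at the third lumbar vertebra. Each library holds the RNA of a whole piece of muscle. The series follows the muscle through the ages in which fat builds up between its fibres. By their labels, these 2 ages stand on either side of the 120 d stage. The total count was between 9758829 and 12159305 fragments per library, so that 3 counts correspond to between 0.247 and 0.307 CPM (counts scaled to the library total) in the 6 libraries.

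Muscle grows after birth mainly because existing fibres enlarge, and satellite cells, the stem cells of muscle, supply further nuclei to them. Fetal and regenerating fibres use their own forms of contractile proteins, which give way to adult forms as the fibre matures. A mature fibre burns glucose or fatty acids according to its type and the animal's nutrition, while the fat between fibres lies in adipocytes (fat cells). Immediate early and heat shock genes respond within minutes to hours to nerve activity, stress or injury.

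The age of a library has 2 readings. The GEO labels give 60 d and 240 d, and these ages are used throughout. The study's supplementary list of differential genes gives other ages to the same values. Its 240 d column lay closest to the mean FPKM (the fragments on a gene, scaled to its length and to the mapped fragments of the library) of the libraries labelled 60 d, with a median absolute log2 difference of 0.0195 over 1025 genes, against at least 0.523 for any other labelled age. Its 120 d column lay closest to the libraries labelled 240 d, with a difference of 0.0196 over 1006 genes, against at least 0.475 for any other. The paper's main table of the largest changes follows the ages of this list, with EGR1 and TNNT2 higher and PDK4 lower at 240 d than at 120 d. Its qRT-PCR also gave EGR1 and FASN as higher at 240 d than at 120 d. Under the reading of the list, the libraries called 240 d here are from 120 d pigs and those called 60 d are from 240 d pigs. Every gene given below as higher at 240 d would then be higher at the younger of the 2 ages. The values and tests are the same under both readings, and only the ages attached to them differ.

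Among 12926 features that averaged 10 or more counts at 1 of these ages, 98 rose and 140 fell from 60 d to 240 d at a false discovery rate (FDR) of 0.05 in edgeR's quasi-likelihood test. These are 0.758% and 1.08% of the features tested, or 1.84% together. The genes that fell included the myogenic factor MYOD1, fetal troponin TNNT2, 5 interferon response genes and 4 immediate early genes. The genes that rose included ACSL1, which activates long-chain fatty acids, the nitric oxide synthase NOS1 and the growth hormone receptor GHR. The median log2 change (240 d minus 60 d, here and below) was -0.02 over all features, 1.5 over those that rose without ACTA1, and -1.88 over those that fell. With the study's stricter rule, an FDR of 0.01 and an absolute log2 change of at least 1, 1 feature passed, or 0.00774%, and this was ACTA1. The lowest adjusted p of any other feature was 0.025.

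The calls at an FDR of 0.05 depended on every library and on the test. Without any of the 3 libraries of 240 d, or without library 1 of 60 d, ACTA1 alone passed. Without library 2 of 60 d 121 features passed, and without library 3 of 60 d 31 did. The Wald test of DESeq2 called 597 features higher (4.62%) and 833 lower (6.44%), including all 238 of edgeR, and edgeR called 1538 when all 12 libraries shared 1 fit. For this reason the counts of each list with DESeq2 are given beside those of edgeR below. An unadjusted p under 0.05 in edgeR was found for 3394 features, or 26.3%, which is the share to set beside the counts at that threshold given below. The FPKM values of the ages did not overlap in 1908 features that were higher at 240 d (14.8%) and in 2238 that were lower (17.3%). Each adjusted p measures only the spread between these libraries, and the smallest p of an exact permutation test with 3 libraries per age is 0.1.

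Correlations of log2(FPKM + 0.1) between libraries, across genes, lay between 0.953 and 0.965 within 240 d, between 0.921 and 0.948 within 60 d, and between 0.873 and 0.940 across the ages. The lowest value within 60 d and the lowest across the ages were both those of library 1 of 60 d. Transcript length moved with the comparison. Its median was 4527 bases in the features that rose without ACTA1, 1944 in those that fell and 2664 in all tested. The median log2 change was -0.20 in the shortest quartile of the features and 0.19 in the longest, and the part of length in the calls was not tested. Mitochondrial transcripts took 11.1%, 11.5% and 5.52% of the counts in the 3 libraries of 60 d and 9.04%, 5.90% and 9.63% in those of 240 d.

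ACTA1, the skeletal muscle alpha-actin of the thin filament (ENSSSCG00000010190, chr14:65236451-65239189 of Sscrofa10.2), was listed at 0 in every library of 60 d. It held 955237, 785524 and 662916 counts in the libraries of 240 d, or 8.57%, 6.59% and 5.64% of their totals. The gene is used by every muscle fibre, and no fold is given. It was also listed at 0 in 2 of the 3 libraries of 120 d and 2 of the 3 of 400 d, so 7 of the 12 libraries held no count, and with all 12 libraries in 1 fit it did not pass (adjusted p = 0.0921). Without this feature 176 features passed an FDR of 0.05, and none passed the stricter rule with edgeR, against 3392 at an unadjusted p under 0.05 and 566 with DESeq2 on all features. The other 6 muscle fibre markers tested, among them desmin (DES) and nebulin (NEB), had log2 changes between -0.03 and 0.84, and none of the 6 passed with edgeR, whereas 1 had an unadjusted p under 0.05. DES, the intermediate filament protein of muscle, had an adjusted p of 0.115, but its levels did not overlap and it passed with DESeq2 (adjusted p = 0.00794).

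Among genes of early muscle, MYOD1, TNNT2 and NES fell. MYOD1, the factor that commits cells to muscle (ENSSSCG00000013375, chr2:44482283-44485063), was at 71.2, 43.2 and 59.0 FPKM in the libraries of 60 d and at 9.96, 4.57 and 7.91 FPKM in those of 240 d. Every library of 60 d stood well above every library of 240 d. The mean fell from 57.8 ± 14 to 7.48 ± 2.72 FPKM (SD, n = 3), and the log2 change was -2.93 ± 0.34 (SE, here and below after a log2 change; adjusted p = 0.025). Of the 13 myogenic and fusion genes tested, MYOD1 was the member that passed, and 3 were lower with DESeq2. The others were the fusion protein MYMK (log2 change -1.42 ± 0.43) and MEGF10, a receptor of satellite cells (-1.17 ± 0.34). MYF5, which acts beside MYOD1, was at 3.20, 3.30 and 5.14 FPKM at 60 d and at 0.934, 2.28 and 1.38 FPKM at 240 d. Its levels did not overlap, but it did not pass (adjusted p = 0.130 with edgeR and 0.0840 with DESeq2). The median log2 change of the 13 genes was -0.60, with 9 negative and 4 positive. Without overlap, 6 had lower and 1 had higher levels, beside 17.3% and 14.8% of all features tested.

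Of 12 fetal-type muscle genes tested, TNNT2 and NES fell and none rose with edgeR, and 3 were lower and none higher with DESeq2. TNNT2, the cardiac troponin T that fetal skeletal muscle also makes (ENSSSCG00000023031, chr10:28159006-28173142), was at 114, 40.7 and 58.1 FPKM at 60 d and at 9.18, 5.41 and 11.4 FPKM at 240 d. Its log2 change was -3.03 ± 0.46 (adjusted p = 0.0368), and the lowest library of 60 d stood above the highest of 240 d. NES (nestin), an intermediate filament protein of immature fibres (chr4:101984554-102074690), was at 7.24, 4.25 and 9.43 FPKM and then at 2.14, 2.18 and 2.53 FPKM. It fell by 1.57 ± 0.30 on the log2 scale (adjusted p = 0.0481). MYH3, the embryonic myosin heavy chain, overlapped between the ages (20.9, 8.89 and 24.5 FPKM against 17.3, 5.28 and 5.78 FPKM, adjusted p = 0.298). MYH8, the perinatal myosin, lies among near-identical myosin genes that can share reads, and its level of 3535 to 10949 FPKM over the 6 libraries is therefore uncertain. CDH2, a cadherin of muscle precursors, was at 0.0390, 2.90 and 6.19 FPKM at 60 d and at 1.32, 8.55 and 106 FPKM at 240 d. The 106 FPKM in library 3 of 240 d stood on 18 counts, whereas 66 counts in library 2 of 240 d stood at 8.55 FPKM, so that level is uncertain. The log2 change of CDH2 was 0.22 ± 0.97 from the counts and 3.67 from the mean FPKM, and the cause of this gap was not tested.

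All 14 cell division genes tested had negative log2 changes, with a median of -1.67. Without overlap, 12 had lower and 0 had higher levels, beside 17.3% and 14.8% of all features tested. TOP2A, the topoisomerase that separates replicated DNA (chr12:22310214-22337485), was at 1.70, 1.27 and 2.59 FPKM at 60 d and at 0.336, 0.406 and 0.501 FPKM at 240 d. It fell by 2.14 ± 0.34 on the log2 scale (adjusted p = 0.0384) and was the member that passed with edgeR, whereas 4 passed with DESeq2. MCM2, part of the helicase that opens DNA for replication, had a log2 change of -1.96 ± 0.43 (adjusted p = 0.0576 with edgeR and 0.00227 with DESeq2). The summed level of the 16 matched members was small, between 10.1 and 18.6 FPKM at 60 d and between 3.78 and 6.0 FPKM at 240 d. In whole muscle, fewer cells of a type and less RNA per cell cannot be told apart.

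**Figure D1:**
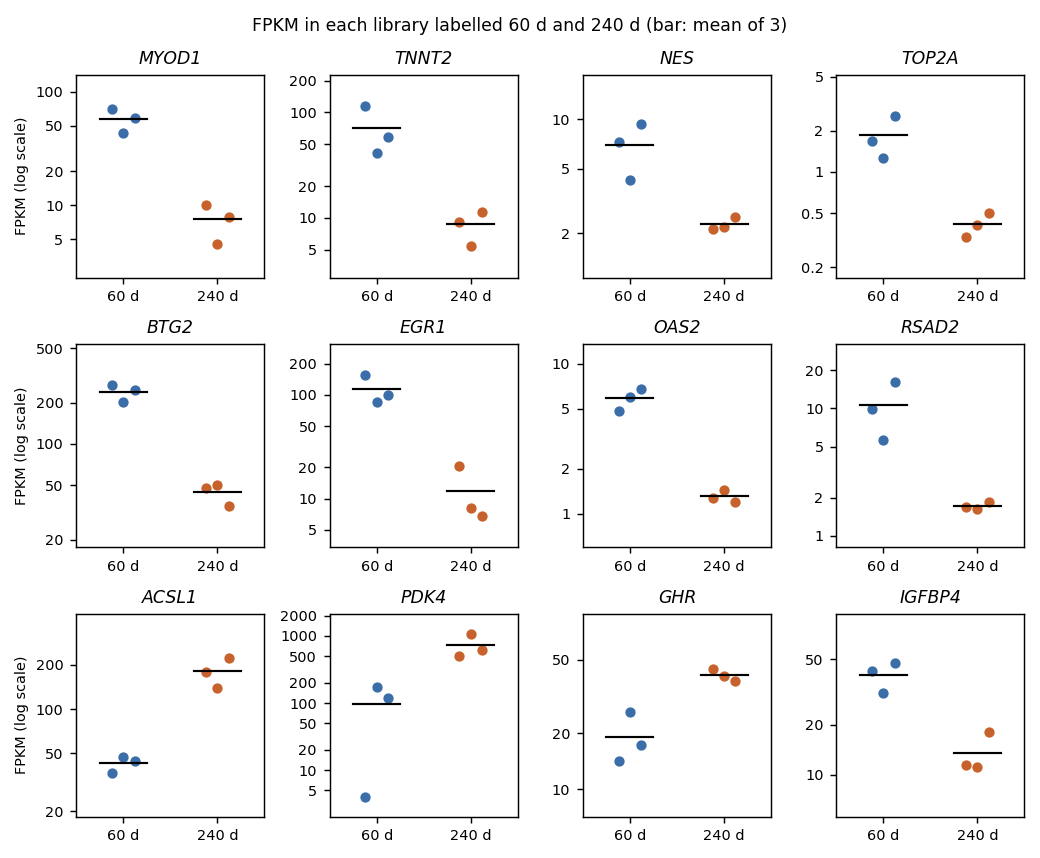
FPKM (log scale) of 12 genes in each of the 3 libraries labelled 60 d (blue) and the 3 labelled 240 d (orange), with a bar at each mean. All genes but PDK4 passed an FDR of 0.05, and 237 of the 238 features that did so had no overlap. The lack of overlap in the panels therefore follows from the choice of genes. Over all features tested, 14.8% were higher and 17.3% lower at 240 d without overlap. PDK4 has a 60 d library at 4.05 FPKM, far below the others at 117 and 172 FPKM.

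Interferon response genes formed the list with the lowest median, -2.19. Of 7 tested, 5 fell with edgeR, namely OAS2, RSAD2, IRF7, IFI44 and MX1, and 6 were lower with DESeq2. OAS2, which makes the signal that activates RNA decay in virus defence (ENSSSCG00000009881, chr14:41196286-41208972), was at 4.87, 6.02 and 6.76 FPKM at 60 d and at 1.28, 1.44 and 1.2 FPKM at 240 d. The log2 change was -2.16 ± 0.25 (adjusted p = 0.025). RSAD2 (viperin), an antiviral enzyme (chr3:137666374-137683557), was at 9.98, 5.69 and 16.0 FPKM and then at 1.68, 1.63 and 1.83 FPKM, a log2 change of -2.50 ± 0.38 (adjusted p = 0.0368). The 3 libraries of 240 d lay close together for both genes, while those of 60 d spread more widely. IRF7, the factor that amplifies interferon production, was at 15.4, 6.30 and 10.8 FPKM at 60 d and at 2.22, 1.76 and 2.18 FPKM at 240 d (adjusted p = 0.0368). MX1, an antiviral GTPase, was at 26.4, 7.95 and 38.3 FPKM and then at 2.52, 1.44 and 2.65 FPKM, and fell by 3.44 ± 0.56 on the log2 scale (adjusted p = 0.0396). IFI44 fell by 2.08 ± 0.30 (adjusted p = 0.0368). MX2 did not pass with edgeR (-2.19 ± 0.47, adjusted p = 0.0567) and passed with DESeq2 (adjusted p = 2.98e-04). Library 2 of 60 d was the lowest of its age for MX1, RSAD2, IRF7 and IFI44.

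Leukocyte markers had all 9 log2 changes negative, with a median of -0.85 and a summed level of 24.1 to 40.9 FPKM against 43.4 to 68.0 FPKM at 60 d. None of the 9 passed with edgeR, 3 had an unadjusted p under 0.05, and 1 passed with DESeq2. No marker of the list was at 0 in all libraries. PTPRC, the defining surface protein of leukocytes, was at 1.17, 1.53 and 3.06 FPKM at 60 d and at 1.30, 0.925 and 1.54 FPKM at 240 d. The part of leukocytes in the change of the interferon response genes was not tested.

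Immediate early genes were the list with the next lowest median, -1.93, and 16 of 17 log2 changes were negative. BTG2, IER3, EGR1 and IER2 fell with edgeR, and 10 were lower with DESeq2. BTG2, an antiproliferative gene (ENSSSCG00000028322, chr9:70327445-70331400), was at 268, 201 and 247 FPKM at 60 d and at 47.3, 50.3 and 35.2 FPKM at 240 d. The mean fell from 239 ± 34.0 to 44.2 ± 7.99 FPKM (SD, n = 3), and the log2 change was -2.42 ± 0.25 (adjusted p = 0.025, and 0.0789 with all 12 libraries in 1 fit). EGR1, a zinc finger factor induced by contraction and injury (chr2:146156065-146160020), was at 154, 84.4 and 99.6 FPKM and then at 20.7, 8.09 and 6.82 FPKM, a log2 change of -3.23 ± 0.48 (adjusted p = 0.0368, and 0.0628 with all 12 libraries). IER3 fell by 3.26 ± 0.45 (adjusted p = 0.0313) and IER2 by 2.36 ± 0.44 (adjusted p = 0.0481). FOS, a subunit of the AP-1 factor, was at 726, 187 and 127 FPKM at 60 d and at 111, 38.8 and 38.3 FPKM at 240 d. Its levels did not overlap, yet it did not pass with edgeR (adjusted p = 0.0917), and it passed with DESeq2 (adjusted p = 0.00274). Library 1 of 60 d was highest for EGR1, IER3, FOS and BTG2. NR4A3, a nuclear receptor of the same early response, was the member with a positive log2 change (1.04 ± 0.91, adjusted p = 0.489).

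All 11 heat shock genes had negative log2 changes, with a median of -1.01, and 1 passed with edgeR and 4 with DESeq2. The member that passed, listed as HSPA1L, is a chaperone of the HSP70 family, whose near-identical copies can share reads, so that its identity is uncertain. It was at 9544, 1647 and 13941 FPKM at 60 d and at 269.8, 783 and 559.9 FPKM at 240 d (log2 change -3.95 ± 0.79, adjusted p = 0.0498). DNAJB1, the HSP40 partner of HSP70, was at 439, 26.6 and 135 FPKM at 60 d and at 14, 17.8 and 12.9 FPKM at 240 d. The 60 d values of DNAJB1 lay far apart, and it did not pass with edgeR (-3.55 ± 0.83, adjusted p = 0.0622). It passed with DESeq2 (adjusted p = 0.00635) and with all 12 libraries in 1 fit (adjusted p = 0.0138). For both genes library 2 was the lowest of the 60 d libraries. BAG3 and HSPB8, which clear damaged filament proteins together, were highest in library 3 of 60 d (1112 and 2909 FPKM) and overlapped between the ages.

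**Figure D2:**
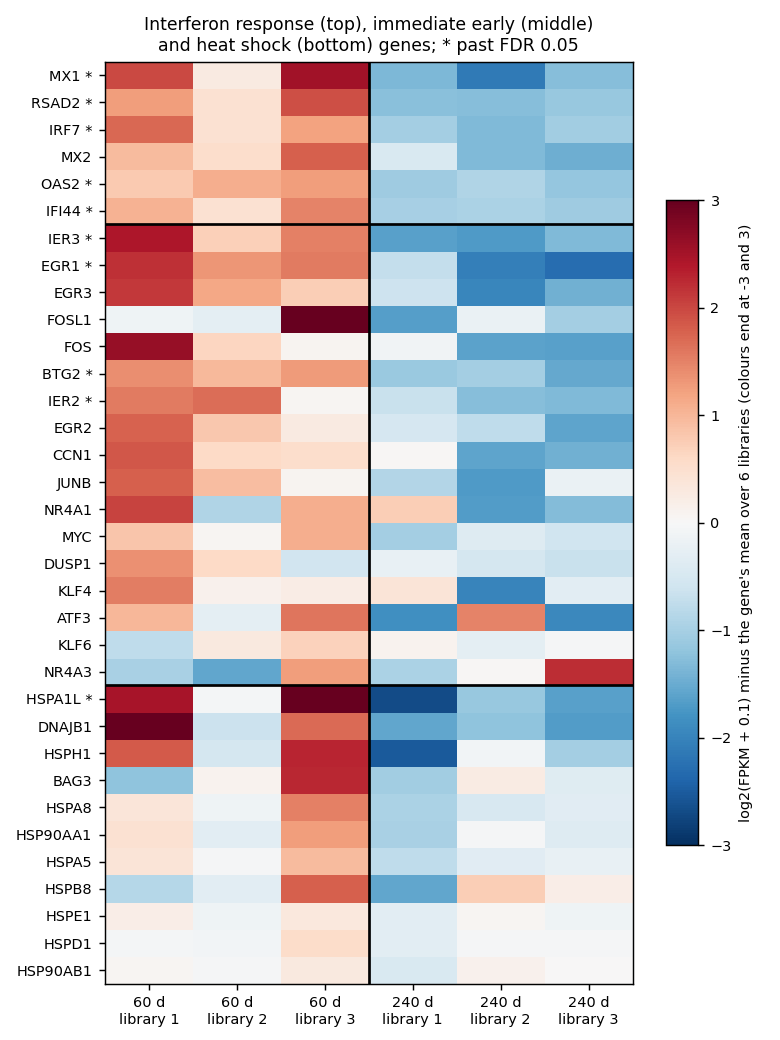
Each row is a gene of the interferon response (top, the 6 whose ages did not overlap), immediate early (middle) or heat shock (bottom) list and each column a library, with colour for log2(FPKM + 0.1) minus the mean of the gene over the 6 libraries. The interferon rows were chosen because their ages did not overlap, so their split by age follows from that choice. The other rows were not chosen in this way and cannot be compared with them in this respect. The heat shock genes are high mainly in libraries 1 and 3 of 60 d.

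Of 17 genes of fatty acid oxidation and the fuel switch tested, 15 had positive log2 changes, with a median of 0.70. Without overlap, 9 had higher and 1 had lower levels, beside 14.8% and 17.3% of all features tested. ACSL1 rose with edgeR, and 5 were higher with DESeq2. ACSL1, which joins long-chain fatty acids to coenzyme A (ENSSSCG00000015784, chr15:52526101-52593343), was at 36.8, 46.8 and 44.1 FPKM at 60 d and at 179, 139 and 224 FPKM at 240 d. The mean rose from 42.6 ± 5.19 to 181 ± 42.8 FPKM (SD, n = 3), and the log2 change was 2.09 ± 0.26 (adjusted p = 0.0311). UCP3, the mitochondrial carrier that muscle makes when fatty acids are plentiful, was at 9.34, 26.4 and 35.2 FPKM and then at 71.5, 148 and 121 FPKM. It did not pass with edgeR (2.29 ± 0.49, adjusted p = 0.0560) and passed with DESeq2 (adjusted p = 0.00011). PDK4, the kinase that shuts pyruvate out of the citrate cycle, was at 4.05, 172 and 117 FPKM at 60 d and at 509, 1072 and 617 FPKM at 240 d. Its levels did not overlap, but library 1 of 60 d lay far below the others, and it did not pass with edgeR (2.92 ± 1.02, adjusted p = 0.128) or DESeq2 (adjusted p = 0.0972). PPARGC1A, a coactivator of mitochondrial genes, overlapped between the ages (1.36, 3.99 and 20.5 FPKM against 6.34, 15.5 and 62.6 FPKM).

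Of 17 genes of oxidative phosphorylation and the citrate cycle tested, 15 had negative log2 changes, with a median of -0.42. None passed with edgeR, 6 had an unadjusted p under 0.05, and 3 were lower with DESeq2, among them NDUFV1 of complex I (-1.15 ± 0.28) and COX4I1 of complex IV (-1.0 ± 0.28). The genes of glycolysis and glycogen had a median of -0.64, with 11 of 14 negative. None of these passed with edgeR, 7 had an unadjusted p under 0.05, and 7 were lower with DESeq2. PGAM2, the muscle phosphoglycerate mutase, was at 10588, 6564 and 7427 FPKM at 60 d and at 3506, 3897 and 2570.1 FPKM at 240 d (adjusted p = 0.0647 with edgeR and 5.84e-04 with DESeq2). The 8 glycolytic genes without overlap, GAPDH and PKM among them, were all lower at 240 d. Over all features tested, 17.3% were lower and 14.8% higher without overlap.

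Genes that make fatty acids and cholesterol had negative medians, -0.97 and -0.98, and no member passed with edgeR. Of 13 fatty acid synthesis genes, 11 had an unadjusted p under 0.05, 2 of them higher and 9 lower, and DESeq2 called 1 higher and 7 lower. FASN, the fatty acid synthase, was at 9.95, 93.7 and 27.2 FPKM at 60 d and at 11.8, 14 and 12.0 FPKM at 240 d. Its 240 d libraries lay within the range of the 60 d libraries, which was set by library 2 (-1.78 ± 0.67, adjusted p = 0.149 with edgeR and 0.0351 with DESeq2). SCD, which makes oleic from stearic acid, was at 11.2, 56.1 and 37.0 FPKM and then at 4.71, 10.1 and 18.3 FPKM, with overlap (adjusted p = 0.153 with edgeR and 0.0425 with DESeq2). ACLY, which supplies acetyl-CoA in the cytosol, and ACACA, which turns it into malonyl-CoA, also overlapped, with log2 changes of -1.37 ± 0.44 (adjusted p = 0.107 with edgeR and 0.0330 with DESeq2) and -0.89 ± 0.38 (adjusted p = 0.180 and 0.141). ACACB, the carboxylase at the mitochondrion that restrains fatty acid entry, was higher at 240 d without overlap (17.5, 11.2 and 14 FPKM against 3.79, 7.27 and 4.84 FPKM, adjusted p = 0.0514 with edgeR and 5.65e-04 with DESeq2).

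Of 22 cholesterol genes, 20 had negative log2 changes. Without overlap, 10 had lower and none had higher levels, beside 17.3% and 14.8% of all features tested. None passed with edgeR, 12 had an unadjusted p under 0.05, and 9 were lower with DESeq2. SQLE, which makes squalene epoxide, was at 3.03, 0.758 and 2.42 FPKM at 60 d and at 0.758, 0.309 and 0.865 FPKM at 240 d (adjusted p = 0.124 with edgeR and 0.0466 with DESeq2).

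Of 12 genes of triglyceride storage and lipolysis, GPAM and PLIN4 rose and none fell with edgeR, 4 had an unadjusted p under 0.05 in each direction, and 3 were higher and 1 lower with DESeq2. GPAM, the mitochondrial enzyme that starts triglyceride synthesis (chr14:133473280-133513936), was at 0.951, 1.58 and 1.43 FPKM at 60 d and at 4.78, 2.61 and 5.83 FPKM at 240 d (1.76 ± 0.35, adjusted p = 0.0497). PLIN4, a coat protein of lipid droplets, was at 12.5, 18.2 and 17.1 FPKM and then at 37.4, 29.9 and 39.3 FPKM (1.17 ± 0.23, adjusted p = 0.0497). G0S2, which inhibits the lipase of lipid droplets, was at 128 FPKM in library 1 of 60 d and between 2.63 and 8.72 FPKM in the other 5 libraries. The median of the 12 genes was 0.06, with 6 positive and 6 negative. Fat cell markers had a median of 0.02 over 5 genes. None passed with edgeR or DESeq2, none had an unadjusted p under 0.05, and the levels of all 5 overlapped. PLIN1, the droplet coat of adipocytes, was at 2.56, 20.8 and 6.07 FPKM at 60 d and at 20.1, 11.1 and 14.8 FPKM at 240 d, so that library 2 of 60 d lay above all libraries of 240 d. ADIPOQ and FABP4, the defining markers of this list, had no matched feature and were not analysed here.

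Protein breakdown and autophagy genes had a median log2 change of 0.75, with 11 of 12 positive. NOS1 rose, and 4 were higher with DESeq2. NOS1, the neuronal nitric oxide synthase at the fibre membrane (ENSSSCG00000009856, chr14:37338524-37518974), was at 0.287, 0.625 and 1.21 FPKM at 60 d and at 4.19, 6.09 and 12.1 FPKM at 240 d. The log2 change was 3.41 ± 0.58 (adjusted p = 0.0439), and no library of 240 d came near those of 60 d. FBXO32 (atrogin-1), a ubiquitin ligase of muscle wasting, was at 2.63, 45.3 and 22.2 FPKM and then at 85.5, 122 and 214 FPKM. Its levels did not overlap, but library 1 of 60 d again lay far below the others. It did not pass with edgeR (2.75 ± 0.80, adjusted p = 0.0907) and passed with DESeq2 (adjusted p = 0.0466) and with all 12 libraries in 1 fit (adjusted p = 0.0337). SQSTM1, the autophagy receptor p62, was at 132, 227 and 282 FPKM at 60 d and at 443, 652 and 788 FPKM at 240 d (1.51 ± 0.36, adjusted p = 0.0646 with edgeR and 0.00170 with DESeq2).

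Among 12 growth factor genes, GHR rose and IGFBP4 fell. GHR, the growth hormone receptor (chr16:28691713-28855128), was at 14.2, 26.0 and 17.3 FPKM at 60 d and at 44.2, 40.8 and 38.2 FPKM at 240 d (1.17 ± 0.22, adjusted p = 0.0480). IGFBP4, a binding protein that holds back IGF (chr12:22275112-22290528), was at 42.5, 31.2 and 47.1 FPKM and then at 11.4, 11.1 and 18.2 FPKM (-1.54 ± 0.27, adjusted p = 0.0477). IGF1 itself overlapped, with 17.6 FPKM in library 1 of 60 d and between 4.22 and 5.4 FPKM in the others. DESeq2 called 1 of the 12 higher and 4 lower, SOCS3 and EIF4EBP1 among them.

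Of 25 extracellular matrix genes tested, 24 had negative log2 changes, and the median was -0.90. THBS1 fell with edgeR, and 8 were lower with DESeq2. Without overlap, 12 had lower and 0 had higher levels, beside 17.3% and 14.8% of all features tested. THBS1 (thrombospondin 1), an adhesive matrix protein (chr1:146905998-146923333), was at 24.2, 19.0 and 34.0 FPKM at 60 d and at 10.8, 7.72 and 7.35 FPKM at 240 d (-1.54 ± 0.29, adjusted p = 0.0480, and 0.113 with all 12 libraries). COL3A1, a fibrillar collagen, was at 1142, 474 and 385 FPKM and then at 404, 248 and 374 FPKM, with overlap (adjusted p = 0.215). Library 1 of 60 d was the highest library for COL3A1, and also for POSTN (periostin), at 39.5 FPKM against 4.41 and 5.26 FPKM in the others of its age. Fibroblast markers, of which 3 were tested, had a summed level of 171 to 556 FPKM at 60 d and 191 to 240.0 FPKM at 240 d. None passed with edgeR or DESeq2, 1 had an unadjusted p under 0.05, and none was at 0. The part of fibroblasts in the levels of matrix genes was not tested.

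The fibre type lists held no call with edgeR. All 5 slow fibre genes had negative log2 changes (median -0.36), 1 had an unadjusted p under 0.05, and 1, MYL3, was lower with DESeq2. MYL3, the slow myosin light chain, was at 4275, 2983 and 1476 FPKM at 60 d and at 1404, 919 and 1618 FPKM at 240 d. Of 6 fast fibre genes (median -0.75), 2 had an unadjusted p under 0.05, and 1, the calcium store protein CASQ1, was lower with DESeq2. PVALB, the calcium buffer of fast fibres, was at 89.8, 7.03 and 175 FPKM and then at 20.9, 9.26 and 19.8 FPKM, and its ages overlapped. MYH7, the slow myosin heavy chain, was not matched and was not analysed here.

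In the circadian clock list of 11 genes (median 0.60), BHLHE41, a repressor of the clock, rose (1.07, 1.02 and 1.54 FPKM at 60 d, 4.44, 3.26 and 3.57 FPKM at 240 d, 1.64 ± 0.26, adjusted p = 0.0378), and it was also the member called with DESeq2. PER1 was at 96.3 FPKM in library 1 of 240 d and between 8.67 and 39.0 FPKM in the other 5. Markers of other cells were without a call in edgeR. Endothelial markers had 2 of 6 at an unadjusted p under 0.05 (median -0.60, 1 lower with DESeq2). Smooth muscle and pericyte markers had 1 of 6 (median -0.19, 1 lower with DESeq2), nerve sheath markers 2 of 2 (median -1.11, 1 lower with DESeq2), and red blood cell markers 2 of 2 (median -1.66, 2 lower with DESeq2). The haemoglobin gene HBB was at 1158, 355 and 216 FPKM at 60 d and at 141, 133 and 272 FPKM at 240 d, and library 1 of 60 d was the highest.

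**Figure D3:**
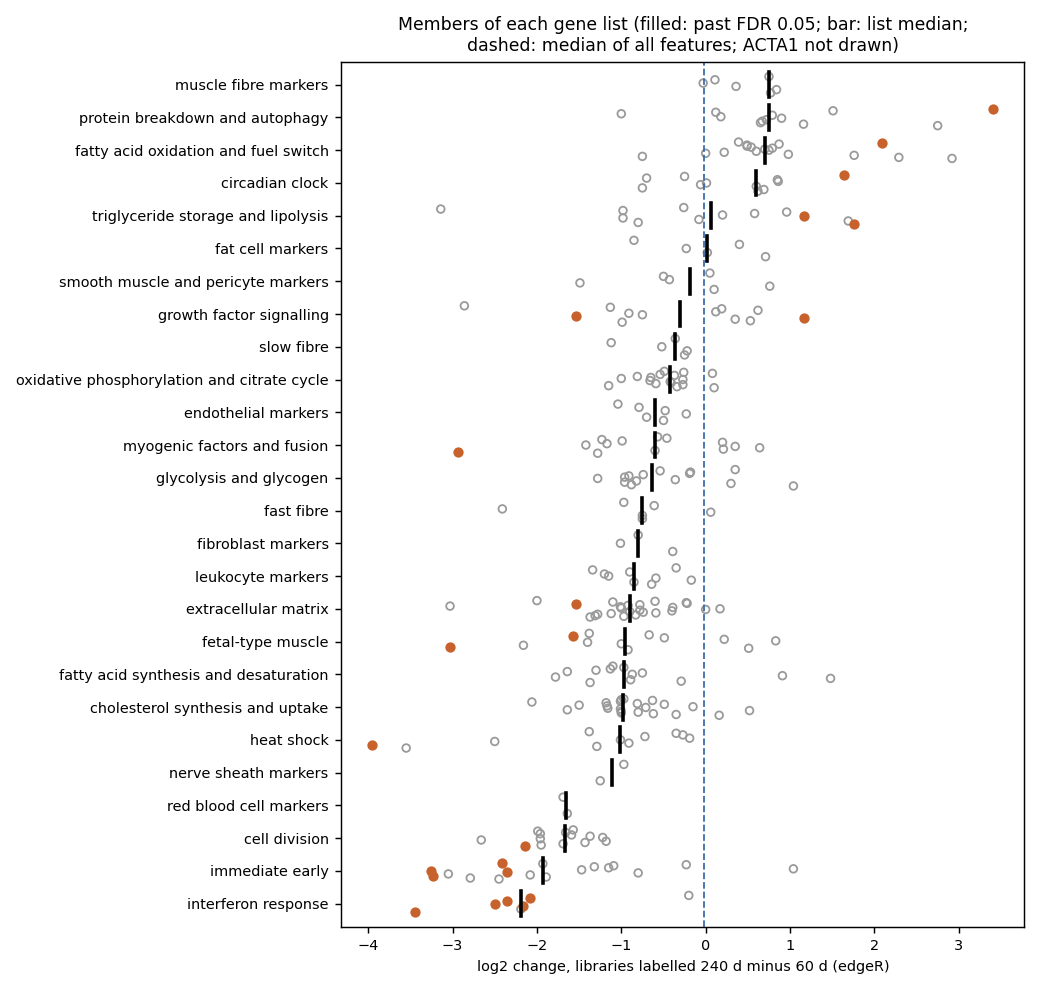
Each point is a member of a gene list, placed by its log2 change from 60 d to 240 d as labelled. Filled points passed an FDR of 0.05, the black bar is the median of the list, and the dashed line is the median of all features (-0.02). The medians run from -2.19 for the interferon response to 0.75 for protein breakdown and muscle fibre markers. ACTA1 is not drawn as a point, but it is counted in the median of the muscle fibre markers.

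Of the 10 largest falls among features with a symbol and an average of 50 or more counts at the higher age, 6 were outside the lists. CITED2, a transcriptional coregulator (chr1:28295773-28296594), had 349 counts over the libraries of 60 d and 2 over those of 240 d, or a ratio of 186 per total count, with a 95% interval of 51.2 to 1543 that covers counting error only. Library 2 of 60 d held 275 of the 349 counts, and without it the ratio was 62.9 (interval 16.8 to 529). Its FPKM was 3.13, 29.2 and 7.29 at 60 d, and it fell with an adjusted p of 0.0439. ADAMTS8, a secreted protease, was at 13.8, 6.30 and 21.3 FPKM at 60 d and at 0.541, 0.734 and 0.477 FPKM at 240 d (-4.57 ± 0.50, adjusted p = 0.025). ENHO, which encodes the secreted peptide adropin, was at 356, 131 and 266 FPKM and then at 24.5, 14.8 and 15.2 FPKM (-3.76 ± 0.42, adjusted p = 0.025). NREP, a small protein found in regenerating nerve, was at 345, 115 and 273 FPKM and then at 29.5, 16.1 and 18.9 FPKM (-3.49 ± 0.45, adjusted p = 0.0313). ARG2, the mitochondrial arginase, fell by 3.68 ± 0.53 (adjusted p = 0.0368), and KCNIP2, a subunit of potassium channels with at most 11 counts in a library of 240 d, fell by 3.84 ± 0.65 (adjusted p = 0.0430). In ADAMTS8, ENHO, NREP and ARG2 library 2 was the lowest of the 60 d libraries, and all of them stood above every library of 240 d.

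The 10 largest rises among features with a symbol and an average of 50 or more counts at the higher age included ACTA1, NOS1 and ACSL1 and the 7 genes that follow. DIAPH1, a formin that builds actin filaments (chr2:149362667-149473795), was at 13.2, 16.5 and 27.4 FPKM at 60 d and at 73.2, 118 and 81.7 FPKM at 240 d (2.47 ± 0.36, adjusted p = 0.0368). DAPK2, a calcium-dependent kinase, was at 1.22, 2.64 and 2.46 FPKM and then at 6.83, 12.4 and 15.4 FPKM (2.60 ± 0.43, adjusted p = 0.0413). PGM2L1, which makes glucose 1,6-bisphosphate, was at 2.88, 3.92 and 4.61 FPKM and then at 17.9, 22.1 and 12.6 FPKM (2.20 ± 0.28, adjusted p = 0.0313). GOLGA4, a tether at the Golgi, was at 7.82, 12.7 and 15.1 FPKM and then at 46.7, 49.9 and 47.2 FPKM (2.0 ± 0.27, adjusted p = 0.0313). RABEP2, an effector of endosome fusion, rose by 2.10 ± 0.28 (adjusted p = 0.0313), and ZYG11B, a substrate receptor of a ubiquitin ligase, by 1.98 ± 0.38 (adjusted p = 0.0493). LOC100737032, which lies near MYH3 on chromosome 12, rose by 2.27 ± 0.43 (adjusted p = 0.0481). None of these genes overlapped between the ages, which held for 237 of the 238 features called and so does not set them apart.

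The libraries labelled 120 d and 400 d took no part in the calls, and they allow the direction of the 237 features other than ACTA1 to be read in other animals. Under the supplementary reading the libraries labelled 120 d are from 400 d pigs and those labelled 400 d from 60 d pigs, so that the order of the ages turns here too. Of the 236 that were also tested there, 230 (97.5%) had the same sign in 400 d minus 120 d, against 9963 of 12600 features (79.1%) over all. Among these 230, 144 also passed an FDR of 0.05 in the 400 d against 120 d test. Transcript length moved with this comparison as well, since the correlation across genes (Spearman) of length with a library's deviation from the mean of all 12 was between 0.10 and 0.16 at 400 d and between -0.09 and 0 at 120 d, beside 0.10 to 0.14 at 240 d and -0.30 to -0.01 at 60 d. Its part in the shared direction was not tested. The median log2 change in these libraries was 1.0 for the features that rose and -1.50 for those that fell. Over whole lists, the medians of oxidative phosphorylation (0.18), slow fibre (0.48), circadian clock (-0.45) and fat cell markers (-0.31) had the opposite sign there. The other lists kept the sign of their median. MYOD1 had -1.96, TNNT2 -3.63, ENHO -2.66, ACSL1 1.96 and GHR 0.91 there, each past an FDR of 0.05. NOS1 (0.85), EGR1 (-1.03), BTG2 (-1.47) and OAS2 (-0.85) had the same sign and did not pass. The 6 features of opposite sign were CRABP1 and 5 without a symbol, named after their values were seen. CRABP1, which binds retinoic acid, had log2 changes of -2.75 in the 240 d against 60 d comparison and 0.62 in the other.

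**Figure D4:**
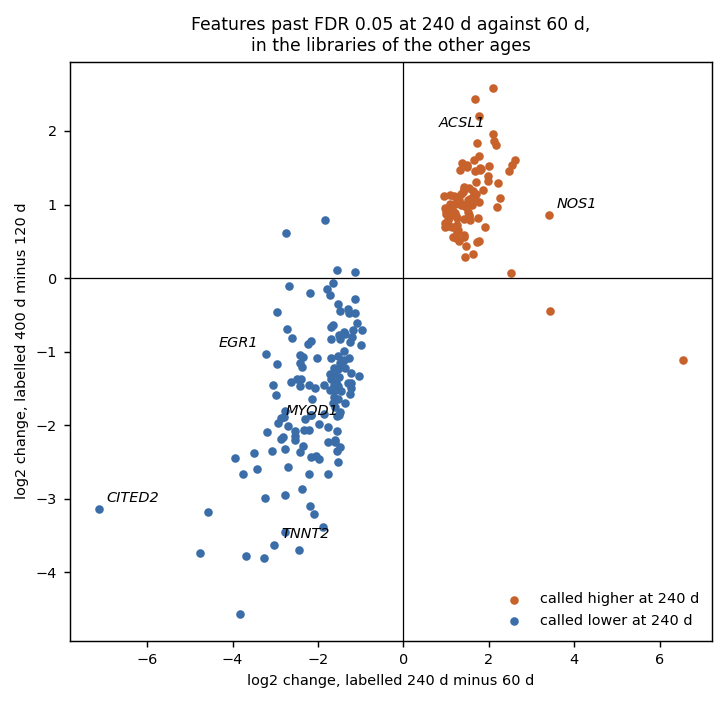
Log2 change from 60 d to 240 d (x axis) against the log2 change from 120 d to 400 d (y axis) for each feature past an FDR of 0.05 in the former, without ACTA1. Of 236 features, 230 lie at the lower left or upper right, where both changes have the same sign.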

How the data were processed

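RNA of 12 LD muscle samples was sequenced in paired-end 125-cycle runs on a HiSeq2500 from NEBNext Ultra libraries. The authors mapped clean reads to Sscrofa10.2 with TopHat2 and deposited a whole-number count per gene and library, without normalization, and an FPKM value from Cufflinks. The submitters' processing notes list Bowtie 0.12.2 and Cufflinks. The program that counted the reads, and whether it used strand, are not given in the sources used here. The deposited normalized count was not used.

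Each file holds the 3 libraries of 1 age, numbered in the order of their columns. The study took 3 pigs per age, and each library was taken as 1 pig. Ages come from the GEO labels. Counts of 240 d and 60 d were compared in edgeR 4.0.16 by its quasi-likelihood test (R 4.3.3, TMM, features averaging 10 or more counts at 1 of these ages, Benjamini-Hochberg adjustment over all features tested). A call is an adjusted p of at most 0.05, and the SE is the absolute log2 change over the square root of F. Levels are the deposited FPKM. Symbols came from a gene table for 11472 features and from the identifiers in the study's supplement for 290. The fits were tested on simulated data.

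Alternatives were DESeq2 1.42.0 (size factors, Wald test), no count filter, a mean of 50 counts, a log2 threshold of 2, all 12 libraries in 1 fit, fold changes from mean FPKM, leaving out each library and, added after seeing the data, leaving out ACTA1. The 26 gene lists and the members were chosen with earlier results of these data known. Named genes are a set list of 28 symbols, of which 6 had no matched feature (CHRNG, MYOG, MYH7, ADIPOQ, FABP4 and COL1A1), up to 4 members per list with the smallest p among the calls, and the 10 largest rises and falls with a symbol and 50 or more counts on average at the higher age. Some genes of the rule and the lists are not reported here by name, but they stay in the counts and medians. List members named beyond this rule were chosen after their values were seen. Python 3.11.15, pandas 2.3.3, numpy 2.4.6, scipy 1.17.1 and matplotlib 3.10.9 were used.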

Additional observations from a re-analysis of the deposited data

How the results depend on the processing

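The 238 features past an FDR of 0.05 became 454 without a count filter, 1430 with the Wald test of DESeq2 and 1538 with all 12 libraries in 1 fit, and ranged from 1 to 121 when 1 library was left out. The 1 feature past an FDR of 0.01 and a log2 change of 1 became 21 without a filter, 566 with DESeq2, 119 with all 12 libraries and 0 without ACTA1, and ranged from 0 to 1 when a library was left out. In these leave-out fits an age keeps 2 libraries. DESeq2 size factors (241), a mean of 50 counts (327) and leaving out ACTA1 (176) kept the first count within 1.5-fold, and a log2 threshold of 2 left the second at 1. The calls of edgeR kept their sign in all fits listed, except that 1 of the 238 features was not tested without library 3 of 240 d, and that ACTA1 was absent from the fit without it. Of the 54 named genes, CDH2 changed sign, with log2 changes between -0.95 (without library 2 of 240 d) and 1.38 (without library 3 of 60 d), and -0.32 without library 1 of 60 d. GPAM, HSPA1L and PLIN4 (adjusted p = 0.0509) and ZYG11B (0.0503) lost their call without ACTA1, and ACTA1, BTG2, EGR1 and THBS1 with all 12 libraries. The cause of the differences between tests was not tested. No paired analysis was possible because the study sampled different pigs at each age, 3 per age.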
